A study of Mus musculus with 9 samples.

Results

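Notch genes were examined in activated hepatic stellate cells (aHSCs), the scar-forming cells of the injured liver. The genes were Notch1, Notch2, Notch3 and Notch4, the ligand genes Jag1 and Jag2, and the target genes Hes1, Hey1 and Heyl. Members were chosen by name alone, as all probes carrying 1 of these symbols. This gave 11 probes of 9 genes among 45281 gene probes on an Illumina MouseWG-6 v2.0 bead array. Of the 11 probes, 6 (1 each for Notch1, Notch3, Notch4, Jag1, Hes1 and Hey1) were detected on at least 3 of the 9 arrays and were tested. Detected means a deposited detection p below 0.05, so that the probe was brighter than nearly all negative control probes of its own array.

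All cells came from WT1GFP/+ mice of the C57/Bl6 strain, labelled male, in which green fluorescent protein (GFP) reports the WT1 locus and 1 WT1 allele carries the reporter. WT1-high cells (GFP high, replicates 1, 8 and 29) and WT1-intermediate cells (GFP low, replicates 1, 8 and 30) were sorted from the livers of adult animals that had received repeated intraperitoneal carbon tetrachloride. WT1-negative cells (GFP negative, replicates 3, 11 and 14) were sorted after quiescent stellate cells had activated in plastic dishes over 7 days. Every group therefore held 3 arrays. The study's animal numbers mean that both in vivo groups were sorted from the same animals. Origin in liver or in culture coincided with WT1 status, so the effects of these cannot be told apart in any comparison with WT1-negative cells.

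Notch receptors are single-pass proteins of the cell surface that are activated by ligands, among them the Jagged proteins, on a neighbouring cell. Ligand binding leads to cleavage by an ADAM protease and then by the gamma-secretase complex. The freed intracellular domain joins the DNA-binding protein RBPJ and Mastermind coactivators and switches on repressors of the Hes and Hey families. In the liver the pathway is best known for bile duct formation, which depends on Jag1 and Notch2, and it has also been studied in stellate cells and fibrosis.

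The probes shown here are those of Notch4, Notch3 and Jag1, and of Hes1, the target most often read for the pathway. The first 30 of the 50 bases of each probe are shown to identify what was measured, and no other probe on the array had the same sequence.
Notch3 probe: tagactcactgggaaaggggtcttgtctgc
Notch4 probe: gccatgttctccagtcactgctatctccga
Second Notch4 probe: ttggtcggtggacttgggagcgcgcggagg
Jag1 probe: gaaccgtaaaatgtccagttagatcactgt
Hes1 probe: cttcgctcacagcggcccggtcatcccggt

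RefSeq promoter sequence (build GRCm38.p6) was at hand for 6 of the 9 genes, namely the 4 receptors and both Jagged genes. The 250 bases before the transcription start of Notch3 and Notch4, which were lower in vivo, and of Jag1, which was higher, are shown 5′ to 3′ on the gene's strand. Capitals mark the N-box CACNAG, a recognition sequence of Hes repressors, on either strand.
Notch3 promoter, chr17:32166891-32167140 (-): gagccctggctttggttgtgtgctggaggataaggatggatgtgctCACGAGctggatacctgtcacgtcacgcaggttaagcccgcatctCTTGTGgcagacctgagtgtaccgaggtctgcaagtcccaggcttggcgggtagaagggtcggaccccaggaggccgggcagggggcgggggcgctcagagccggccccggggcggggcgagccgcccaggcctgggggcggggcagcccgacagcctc
Notch4 promoter, chr17:34564045-34564294 (+): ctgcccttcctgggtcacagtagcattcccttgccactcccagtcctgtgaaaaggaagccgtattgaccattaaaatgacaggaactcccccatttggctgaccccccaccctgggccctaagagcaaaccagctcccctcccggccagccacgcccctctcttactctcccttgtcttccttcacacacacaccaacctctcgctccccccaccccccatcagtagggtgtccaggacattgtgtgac
Jag1 promoter, chr2:137116521-137116770 (-): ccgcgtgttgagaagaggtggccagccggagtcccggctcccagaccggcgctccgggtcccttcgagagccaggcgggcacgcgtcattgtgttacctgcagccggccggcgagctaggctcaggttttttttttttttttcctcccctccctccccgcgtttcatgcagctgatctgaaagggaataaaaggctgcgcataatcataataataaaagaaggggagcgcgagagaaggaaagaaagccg

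The N-box occurred at 2 places in the Notch3 window, with the first base 204 and 159 bases before the start, at 1 place each in the Notch1 and Notch2 windows, and at no place in the Notch4, Jag1 and Jag2 windows, so that 3 of 6 windows held it. Of all 32841 promoter windows of this length without unknown bases, 36.7% held at least 1. The core letters of the RBPJ motif, TGGGAA, searched on both strands, occurred in none of the 6 windows against 21.6% of all windows, and the E-box CACGTG in none against 6.02%. These matches describe the letters in the windows only.

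The in vivo and cultured arrays differed broadly, which sets the scale for the members. Of 20573 probes tested with limma, 59.6% passed an adjusted p of 0.05 between WT1-high and WT1-negative cells, with 26.5% higher and 33.1% lower in WT1-high cells. Between WT1-intermediate and WT1-negative cells 58.0% passed, 24.4% being higher and 33.6% lower in WT1-intermediate cells. Between the in vivo groups 3.55% passed, with 0.904% higher and 2.64% lower in WT1-high cells. With median scaling in place of quantile normalisation the share of calls that were higher went from 25.5% to 95.5% between the in vivo groups and from 42.1% to 23.1% in WT1-intermediate against WT1-negative cells. Between 38.1% and 43.7% of gene probes were detected per array.

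Markers of several cell types moved with the groups. Of 10 stellate cell markers 7 were detected on all arrays in each group, whereas Gfap was detected on no array, Lrat on no WT1-intermediate or WT1-negative array, Ngfr on no WT1-intermediate array and Hand2 on no WT1-negative array. All 7 mesothelial markers were higher in both in vivo groups than in culture, with a summed level (the sum of normalised linear intensities) of 26900 to 32800 in WT1-high, 16000 to 22600 in WT1-intermediate and 50.9 to 94.5 in WT1-negative cells, where Dmkn, Gpm6a, Krt19 and Lrrn4 were undetected. The 10 macrophage markers summed to 2550 to 5360, 11300 to 17200 and 39800 to 44500 in the same order, with Cd5l detected nowhere and Clec4f not in culture. The markers did not all follow the sums. Of the 9 tested, 7 fell and 1 rose in WT1-high cells against culture. In WT1-intermediate cells 4 fell and 2, Clec4f and Marco, rose. The 12 endothelial markers, of interest because Notch4 is best known from endothelium, summed to 1150 to 1620, 2140 to 2540 and 1530 to 2150, and only Kdr was undetected in vivo. Of these 12, 6 fell and 2 rose in WT1-high cells against culture, and 6 fell and 3 rose in WT1-intermediate cells. In WT1-high against WT1-intermediate cells 4 fell and 0 rose, and with median scaling 0 fell. Smooth muscle and pericyte markers (6 genes), a lineage in which Notch3 is prominent, summed to 2140 to 2930, 1220 to 1640 and 7590 to 9060, with Cnn1 and Rgs5 undetected throughout. These sums were mostly Acta2, which the study lists as a fibrogenic gene, at a mean level of 13.01 in WT1-negative cells against 6.75 for Tagln. Of the 4 tested, 3 fell and 0 rose in WT1-high cells against culture. In WT1-intermediate cells 3 fell and 1, Myh11, rose (0.69). Hepatocyte markers (4 tested of 6) and lymphocyte markers (6 tested of 8) all rose in WT1-high cells against culture, and 3 and 6 of them rose in WT1-intermediate cells, while Alb, Fabp1 and Ms4a1 were detected on no array. The part of other cell types in the results below was not tested, and in these bulk samples fewer cells of a type and less RNA per cell cannot be told apart.

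**Figure D1:**
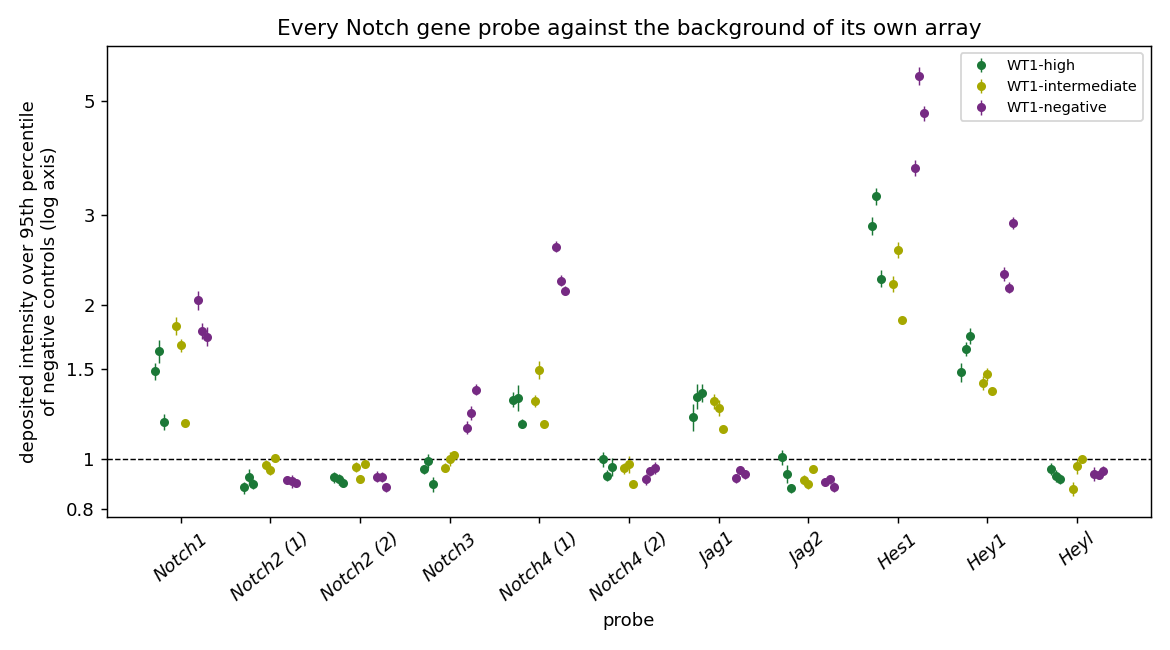
Deposited intensity of every Notch gene probe divided by the 95th percentile of the negative controls on the same array (log axis, dashed line at 1), with bars showing the bead standard error (none for WT1-intermediate 30); colours are the 3 groups with 3 arrays each, and (1) and (2) are different probes of 1 gene. Both Notch2 probes, the second Notch4 probe, Jag2 and Heyl lie near the dashed line on all arrays, while the Notch1, first Notch4, Hes1 and Hey1 probes lie above it on all 9.

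All 4 receptor genes were on the array, and 3 of them gave a signal that could be tested. Against cultured WT1-negative cells, Notch4, Notch3 and Notch1 all fell in WT1-high cells, and Notch4 and Notch3 fell in WT1-intermediate cells.

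The level of Notch4 (log2 of the normalised intensity) was 5.55, 5.36 and 5.43 in WT1-high, 5.93, 6.10 and 5.95 in WT1-intermediate and 7.42, 7.01 and 6.96 in WT1-negative arrays. The 3 groups did not overlap, and the probe was detected on all 9 arrays. WT1-high cells were lower than WT1-negative cells by 3.22-fold (log2 difference -1.68 ± 0.16 SE, limma adjusted p = 4.8e-06), and WT1-intermediate cells by 2.20-fold (-1.14 ± 0.16, limma adjusted p = 0.00011). The second Notch4 probe was detected on 1 array, WT1-high 1, at levels from 4.16 to 4.49 over all 9, and so gave no second measurement of the gene.

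Notch3, a receptor of mural cells, was at 4.31, 4.49 and 4.23 in WT1-high, 4.31, 4.57 and 4.85 in WT1-intermediate and 5.34, 5.44 and 5.88 in WT1-negative arrays. It was detected on no WT1-high array, on 2 WT1-intermediate arrays and on all 3 WT1-negative arrays. Cultured cells were above every in vivo array. Because the WT1-high arrays gave only a bound, Notch3 was at least 2.01-fold lower there than in WT1-negative cells (limma adjusted p = 0.00023), the bound being taken against the dimmest detected probe of each WT1-high array or the probe itself where brighter. The fall in WT1-intermediate cells was 1.97-fold (-0.98 ± 0.19 SE, limma adjusted p = 0.0011).

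Notch1, the broadly expressed receptor, was detected on all arrays, at 5.95, 5.90 and 5.46 in WT1-high, 7.02, 6.40 and 5.98 in WT1-intermediate and 6.93, 6.49 and 6.50 in WT1-negative cells. WT1-high arrays lay below all others, whereas the WT1-intermediate arrays spread over and beyond the range of the cultured arrays. WT1-high cells were 1.83-fold lower than WT1-negative cells (-0.87 ± 0.25 SE, limma adjusted p = 0.012), and this call was lost without WT1-negative replicate 3 (-0.73, limma adjusted p = 0.052) and with median scaling (-0.85, limma adjusted p = 0.069). WT1-intermediate and WT1-negative cells differed by -0.18 (95% interval -0.73 to 0.38, limma adjusted p = 0.57), a difference that turned to 0.07 without WT1-intermediate replicate 30 and went to -0.69 with median scaling (limma adjusted p = 0.12).

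Neither Notch2 probe could be tested. The first was detected on WT1-intermediate 30 alone and the second on no array, with levels from 4.16 to 4.70 and from 4.20 to 4.42. Notch2 was therefore not well above background in any group, and no fold is given.

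**Figure D2:**
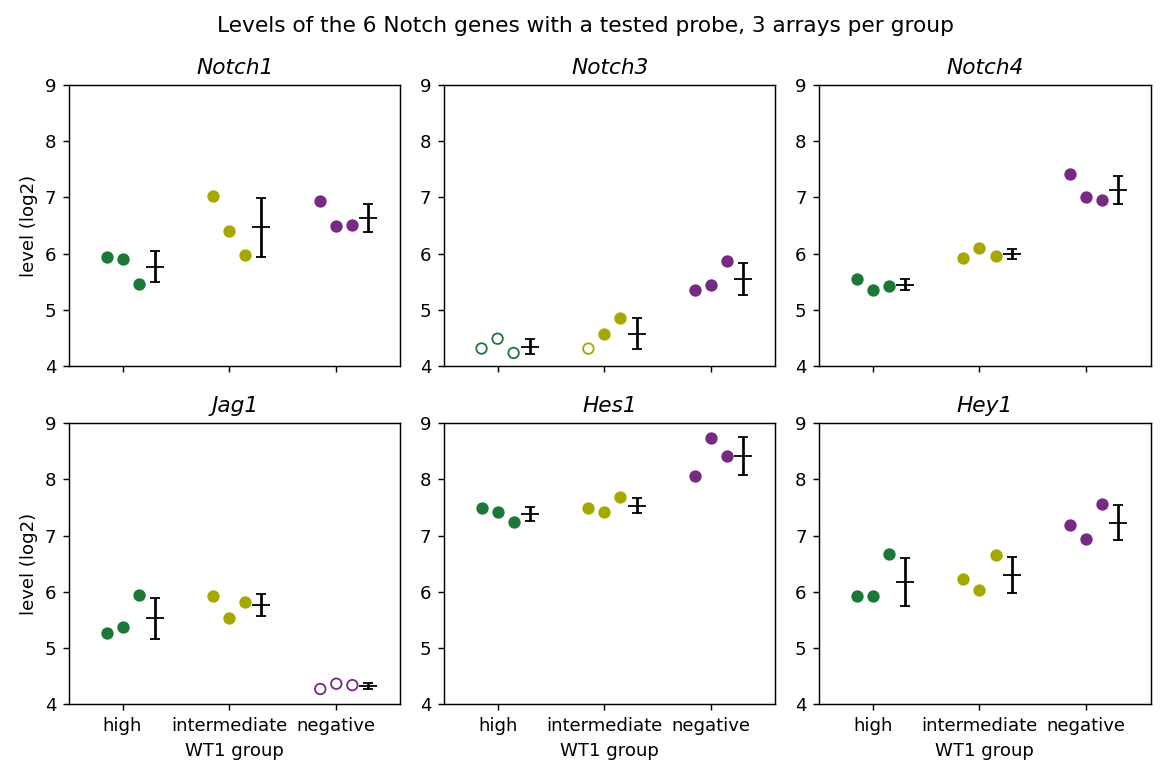
Log2 level on each array of the 6 tested members, by WT1 group (3 arrays each); filled points were detected, open points were not, and the black mark and bar beside them are the mean ± SD. Jag1 is open in all WT1-negative arrays, and Notch3 in all WT1-high arrays.

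Of the ligand genes, Jag1 ran opposite to the receptors, being detected on all 6 in vivo arrays and on none from culture. Its level was 5.27, 5.37 and 5.95 in WT1-high, 5.92, 5.54 and 5.82 in WT1-intermediate and 4.27, 4.36 and 4.34 in WT1-negative cells. The in vivo groups overlapped each other, and both were clear of the cultured arrays. Against WT1-negative cells, where it was not well above background, Jag1 rose by at least 1.90-fold in WT1-high cells (limma adjusted p = 0.00024). The rise in WT1-intermediate cells was at least 2.23-fold (limma adjusted p = 7.6e-05). Jag1 is also expressed by cholangiocytes and mesothelium. Of 6 cholangiocyte markers, 4 were tested, all 4 rose in WT1-high cells and 2 in WT1-intermediate cells against culture, with summed levels of 2930 to 3170, 1500 to 2310 and 136 to 248 in high, intermediate and negative cells. Epcam was undetected on all arrays. Jag2, the other Jagged ligand, was detected on WT1-high 1 alone and ranged from 4.18 to 4.52, so it had no usable level.

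The target genes Hes1 and Hey1, which encode basic helix-loop-helix repressors, fell in both in vivo groups against culture. Hes1, which is not set by Notch alone, was at 7.49, 7.41 and 7.24 in WT1-high, 7.50, 7.43 and 7.68 in WT1-intermediate and 8.06, 8.74 and 8.42 in WT1-negative cells. All 6 in vivo arrays lay within a narrow band beneath the cultured ones. The fall was 2.04-fold in WT1-high cells (-1.03 ± 0.18 SE, limma adjusted p = 0.00053) and 1.83-fold in WT1-intermediate cells (-0.87 ± 0.18, limma adjusted p = 0.0017).

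Hey1 was at 5.93, 5.92 and 6.67 in WT1-high, 6.23, 6.03 and 6.65 in WT1-intermediate and 7.18, 6.94 and 7.56 in WT1-negative cells. Replicates 29 and 30 were the brightest of their groups but stayed below every cultured array. Hey1 fell 2.08-fold in WT1-high cells (-1.06 ± 0.25 SE, limma adjusted p = 0.0034) and 1.90-fold in WT1-intermediate cells (-0.93 ± 0.25, limma adjusted p = 0.0074). With median scaling, which moved the median of all probes in WT1-intermediate against WT1-negative cells from -0.13 to -0.44, Hes1 went to -1.58 and Hey1 to -1.49 there. Heyl was detected on WT1-intermediate 30 alone and ranged from 4.14 to 4.63.

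In total, all 6 tested probes passed between WT1-high and WT1-negative cells, 5 lower and 1 higher, where 59.6% of all probes passed. Between WT1-intermediate and WT1-negative cells 5 of 6 passed, 4 lower and 1 higher, against 58.0% of all. The median log2 difference of the 6 was -1.04 and -0.90 in these comparisons, against -0.10 and -0.13 over all tested probes. Both comparisons share the WT1-negative arrays. The other 5 of the 11 probes were left out by the detection filter. Jag1, undetected in culture, and Notch3, undetected in WT1-high cells, passed that filter only through the groups where they were high. These counts and medians, and the p-values of both genes against WT1-negative cells, therefore describe the tested probes and are no support for a difference.

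**Figure D3:**
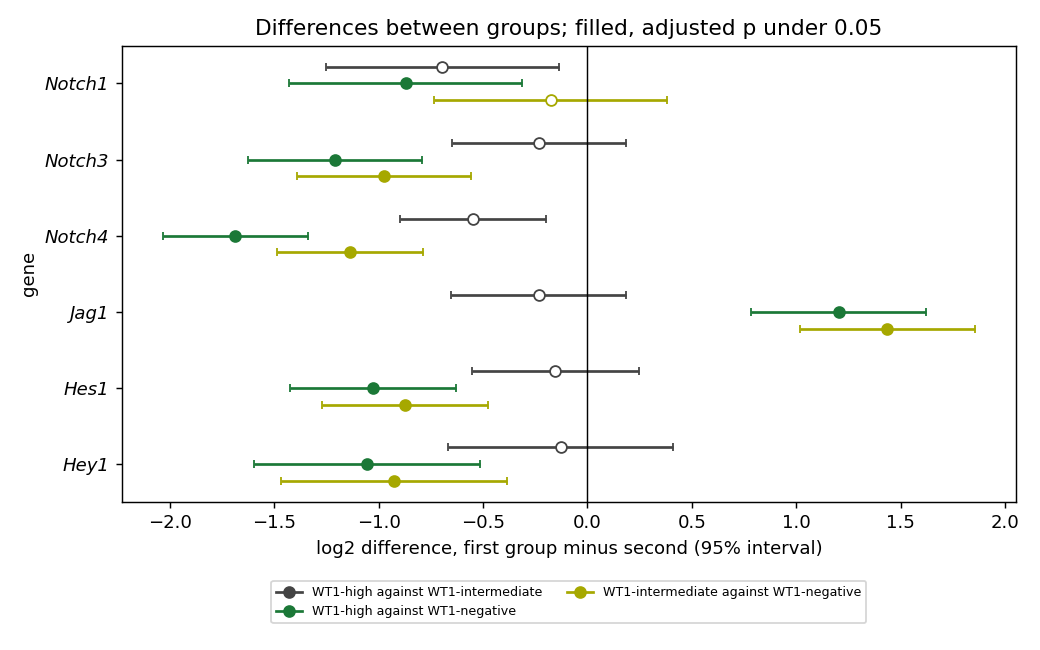
Log2 difference of the 6 tested members in the 3 comparisons (first group minus second) with 95% intervals from limma, filled where the adjusted p was under 0.05. Notch1, Notch3, Notch4, Hes1 and Hey1 lie left of 0 and Jag1 right of 0 in both comparisons with WT1-negative cells, where all but Notch1 in WT1-intermediate cells are filled.

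Within the injured liver, the contrast between the WT1-positive groups addressed whether the degree of WT1 expression went with Notch gene levels when origin was shared. None of the 6 members passed in limma's test without pairing, where 3.55% of all probes passed, and 2 of the 6, Notch1 and Notch4, had an unadjusted p under 0.05. Notch4 was 1.46-fold lower in WT1-high cells (-0.55, 95% interval -0.90 to -0.20, limma adjusted p = 0.089) and Notch1 was 1.62-fold lower (-0.70, 95% interval -1.25 to -0.14, limma adjusted p = 0.18). For both the groups did not overlap, but for Notch1 only narrowly (5.95 on WT1-high 1 and 5.98 on WT1-intermediate 30). The share of all probes without overlap was not counted, so this only describes the 2 probes.

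By the study's animal numbers the animals were shared between these groups, so the arrays were also compared in pairs. For Notch1 the difference was -1.07 between the arrays numbered 1, -0.49 between those numbered 8 and -0.52 between WT1-high 29 and WT1-intermediate 30. For Notch4 it was -0.38, -0.74 and -0.52. WT1-high was thus lower in 3 of 3 pairs for each receptor after quantile normalisation. Deposited intensities did not all follow this order. For Notch1 they were 132 against 151 (WT1-high against WT1-intermediate), 168 against 156 and 111 against 95.3 in the same pairs. For Notch4 they were 116 against 108, 137 against 140 and 111 against 94.9. Mean signal per array was 231.4 to 288.9 in WT1-high and 147.5 to 220.5 in WT1-intermediate cells. The pairs and blocks were not repeated with median scaling. The share of all probes lower in every pair was not counted. With these pairs as a fixed replicate block Notch1 passed (limma adjusted p = 0.039) and Notch4 did not (limma adjusted p = 0.067). With a random replicate block Notch4 passed (limma adjusted p = 0.029) and Notch1 did not (limma adjusted p = 0.056), so 1 of 6 members passed in either case. Of all 20573 probes, 1520 passed with the fixed block and 1796 with the random block, against 730 without a block.

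The remaining tested members overlapped between the in vivo groups. Notch3 was not detected on the WT1-high arrays, so no difference is given. The log2 differences were -0.23 for Jag1 (95% interval -0.65 to 0.19), -0.15 for Hes1 (-0.55 to 0.25) and -0.13 for Hey1 (-0.67 to 0.41). Median scaling in place of quantile normalisation moved the median of all probes in this comparison from 0.05 to 0.45, and with it Jag1, Hes1 and Hey1 to 0.20, 0.51 and 0.42. Notch1 and Notch4 went to -0.16 and -0.09 (limma adjusted p = 0.76 and 0.83). Relative to that shift, Notch1, Notch4, Jag1 and Hey1 were on the lower side and Hes1 was not. Endothelial and macrophage markers were also lower in WT1-high cells, as given above, 7 of 9 tested macrophage markers and 4 of 12 endothelial markers passing (4 and 0 with median scaling).

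**Figure D4:**
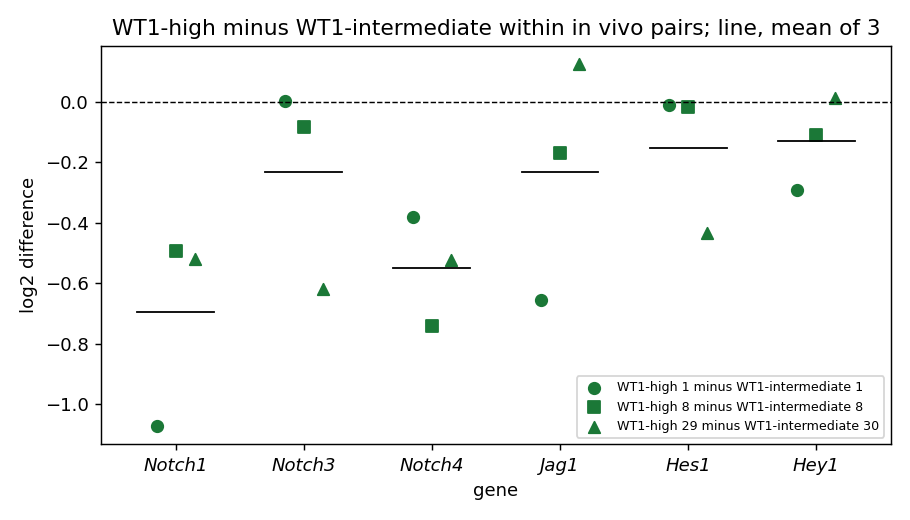
Log2 difference of quantile normalised levels, WT1-high minus WT1-intermediate, for the 6 tested members in each in vivo pair of arrays (symbols). The line is the mean of the 3 pairs. Notch1 and Notch4 lie below 0 in every pair, from -1.07 to -0.38, while the other 4 members come close to 0 or above it in at least 1 pair.

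The wider pathway was read from a list of 55 other Notch genes, of which 51 were on the array and 42 were tested, with 1 probe per gene, the brightest. Against WT1-negative cells, 16 fell and 6 rose in WT1-high cells, and 15 fell and 6 rose in WT1-intermediate cells, the median log2 difference being -0.32 and -0.22. That is 22 and 21 of 42, against 59.6% and 58.0% of all probes. With median scaling 9 fell and 3 rose in WT1-high cells, and 20 fell and 1 rose in WT1-intermediate cells. The choice of probe mattered for some genes. In WT1-high cells against culture, other probes of Pofut1 (-0.66), Mfng (-0.59) and Cir1 (-0.54 and 0.66) passed where the brightest did not. For Adam17, Furin, Ncstn, Ctbp2, Dtx2 and Hes6, at least 1 other probe passed there in the same direction as the brightest. Between the in vivo groups 1 of 42 passed, against 3.55% of all probes, and 4 passed with median scaling and 0 with cyclic loess. Some listed genes, among them Adam10, Rbpj and Rfng, passed the detection filter only through the groups where they were high. The counts and medians for the list therefore describe the tested genes and are no support for a difference.

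Genes of receptor cleavage were all tested, 9 of 9. All passed in WT1-high cells, 7 lower and 2 higher than in culture, where 59.6% of all probes passed. Among those that fell were the gamma-secretase genes Ncstn (-0.69), Aph1a (-0.62), Psen2 (-0.44) and Psenen (-0.42), the proprotein convertase Furin (-0.71) and the sheddase Adam17 (-0.87). The 3 other Aph1a probes and the other Psen2 probe were too dim to test. Aph1b, the alternative gamma-secretase subunit, rose (0.69). Adam10, the protease that cuts ligand-bound Notch, rose by at least 1.92-fold in WT1-high and at least 2.31-fold in WT1-intermediate cells (limma adjusted p = 2.8e-05 and 7.9e-06). These are bounds because it was detected on no cultured array. Adam10 passed the detection filter only through the in vivo arrays, where it was high, so these p-values are no support for a difference. Its other tested probe differed by 0.24 and 0.29 and did not pass. In WT1-intermediate cells 5 of the 9 fell and 2 rose, where 58.0% of all probes passed. With median scaling 2 fell and 1 rose in WT1-high cells, and no gene called here turned direction.

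In the nuclear complex, Rbpj, which encodes the DNA-binding partner of the Notch intracellular domain, had a pattern like that of Notch3. Its level was 4.24, 4.18 and 4.20 in WT1-high, 4.60, 4.29 and 4.33 in WT1-intermediate and 5.92, 5.71 and 5.36 in WT1-negative cells, with detection on 0, 1 and 3 arrays. The 2 other Rbpj probes were too dim to test. The fall in WT1-high cells was at least 2.17-fold (limma adjusted p = 2.3e-05), and in WT1-intermediate cells the log2 difference was -1.26 (limma adjusted p = 7.9e-05). Rbpj passed the detection filter only through the cultured arrays, where it was high, so these p-values are no support for a difference. The coactivator gene Maml1 rose in both in vivo groups (1.35 and 0.90), the latter not passing with median scaling (0.50, limma adjusted p = 0.15). Kat2b, a histone acetyltransferase gene, was the 1 gene that passed between the in vivo groups, at least 1.56-fold higher in WT1-high cells (limma adjusted p = 0.032), with no detection in WT1-intermediate cells. Its other tested probe differed by 0.05, and the call was lost under 12 of 20 alternatives, among them leaving out any 1 of the 6 in vivo arrays (limma adjusted p from 0.0072 to 0.16 over the 20).

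Of the further targets and family members, 2 of 7 were tested and both fell in both in vivo groups, where 59.6% and 58.0% of all probes passed. Hes6, a family member that does not act as a plain Hes1-like repressor, was at 6.61, 6.14 and 6.28 in WT1-high, 6.95, 6.67 and 6.55 in WT1-intermediate and 8.47, 8.86 and 8.48 in WT1-negative cells. Its log2 differences from culture were -2.26 and -1.88 (limma adjusted p = 1.6e-06 and 7.6e-06), and its 2 other tested probes passed in the same direction. Nrarp, a feedback inhibitor induced by Notch, differed by -0.92 and -1.14 (limma adjusted p = 0.0014 and 0.00033). Hes2, Hes3, Hes5, Hes7 and Hey2 were too dim to test.

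Genes acting on ligands and on receptor turnover moved in both directions. The non-canonical ligand gene Dlk1 fell in WT1-high cells (-1.41), as did the fringe glycosyltransferase gene Rfng (at least 1.81-fold). Dlk2, another such ligand gene, also fell (-0.36), but both Dlk1 and Dlk2 were detected on 1 of 3 WT1-high arrays, and the call for Dlk2 was lost with median scaling and with cyclic loess (limma adjusted p = 0.15 and 0.11). Fbxw7, whose product marks the Notch intracellular domain for destruction, fell (-1.42), and the corepressor gene Ctbp2 fell (-0.94). The 2 other Fbxw7 probes were too dim to test. The ubiquitin ligase genes Dtx2 (1.13), Itch (0.74) and Mib2 (0.61) rose, but the calls for Itch and Mib2 were lost with median scaling (limma adjusted p = 0.056 and 0.19), and the 2 other tested Itch probes gave -0.66 and -0.83 without passing. The ligand genes Dll1 and Dll3 were too dim to test, and Dll4 did not pass and was detected on no WT1-high array.

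**Figure D5:**
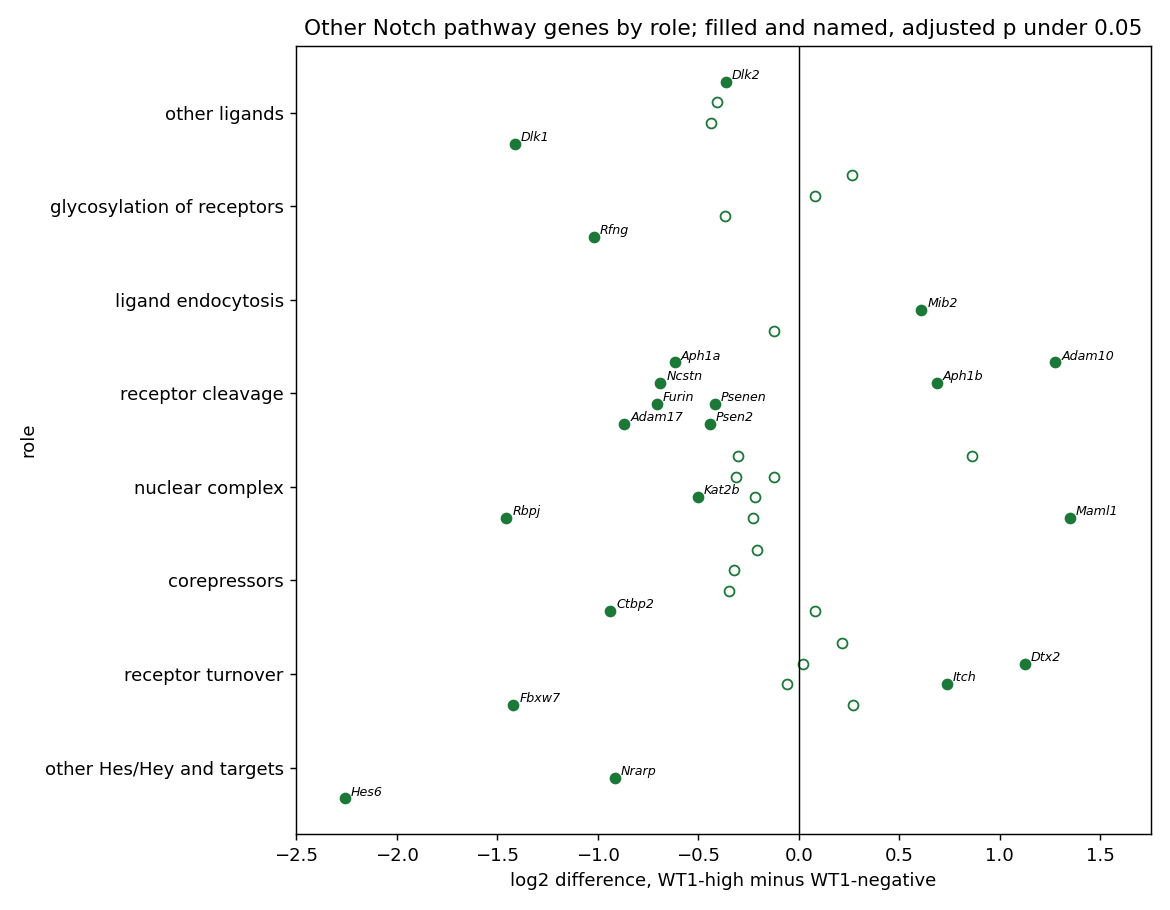
Log2 difference, WT1-high minus WT1-negative, of 41 of the 42 tested genes of the wider Notch list, arranged by role with a small vertical offset for legibility; filled, named points passed an adjusted p of 0.05. Among these 41, filled points number 15 left of 0 and 6 right of 0, with Hes6 farthest left and Maml1 farthest right.

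The genes most like each member were found by the root mean square difference of centred log2 levels over the 9 arrays, as a description with no test. For Notch4 they were Atp2a3 (0.13), 1700081H05Rik (0.13) and Cdc7 (0.13), against an SD of 0.76 for Notch4 over the arrays. For Notch3 they were Vldlr (0.11), Rbm47 (0.14) and Tpp1 (0.14), and for Notch1 they were Ccrk (0.11), Frmd4a (0.13) and 2900045G02Rik (0.15). Jag1 was closest to LOC380707 (0.10), LOC269251 (0.12) and 2900010J23Rik (0.13). Hes1 had the closest neighbours, Ocel1 (0.07), Tnfrsf13b (0.08) and Flot2 (0.08), and Hey1 the most distant, Zfp560 (0.17), 1700065O13Rik (0.17) and 2510010F15Rik (0.17). No other member and no gene of the wider Notch list was among these 18 genes. With so few neighbours taken from all tested probes this was likely in any case, so it does not tell whether Notch genes moved together.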

How the data were processed

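The tables deposited by the authors came from Illumina's BeadStudio before any normalisation and hold 1 linear-scale intensity per probe and array. The detection p-value used here was deposited beside it. The deposited tables also gave the number and standard error of the beads behind each intensity. Between 24 and 53 beads lay behind each member's value on the 8 arrays whose bead columns could be matched to a label. Replicates were not pooled by the authors. A column numbered 29 in the WT1-intermediate group was taken as replicate 30, the array of that group left over, and its values equalled those of the joined table (largest difference 0).

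Intensities were background corrected with 936 negative control probes (neqc, offset of 16, with 38 other control probes), quantile normalised and log2 transformed in limma 3.58.1 under R 4.3.3. Levels near 4.2 to 4.4 are background on this scale, and the offset understates changes of dim probes. The 20573 probes detected (p under 0.05) on 3 or more arrays were kept. The study names limma and these steps but no such filter. A linear model of 3 group means was fitted to the 9 arrays, with 6 residual degrees of freedom and a prior of 5.19, followed by two-sided moderated tests and Benjamini-Hochberg adjustment over all kept probes. An adjusted p under 0.05 counts as passed. Replicates are animals or isolations per the study. The number of arrays limits the precision.

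By the study's animal numbers, both in vivo groups were sorted from the same animals, which pairs the arrays. The third pair is numbered 29 and 30 in the sample labels but 29 for both in the deposited columns. Whether these are 1 animal is not stated in the labels. Correlations across probes of deviations from the group means were 0.35 for the arrays numbered 1, 0.34 for those numbered 8 and 0.47 for 29 with 30, against -0.39 to 0.03 for other combinations. The study states no block, so blocks were alternatives. Other alternatives were no background correction, an offset of 50, median scaling, cyclic loess, other filters, fewer groups in the fit, array weights, a trended robust prior and leaving out each array.

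Members, lists and tests were chosen with earlier results of these data known. All members are named. Other genes came from the pathway list where they passed, with the brightest probe per gene, and from likeness (the 3 closest probes). Of all listed genes, 120 matched by symbol, 1 by older symbol, 2 by Entrez ID, and 5 did not match. Some listed genes are counted but not reported here. A simulation gave 200 of 20573 probes a log2 difference of 2. It recovered 97.5% in WT1-high against WT1-intermediate, 97% in WT1-high against WT1-negative and 94% in WT1-intermediate against WT1-negative. False calls numbered 17, 12 and 8 in the same order. All tested members differed by less than 2, and more than 200 probes passed in each real comparison. The simulated rates therefore do not give the power for the member differences, including those between the in vivo groups.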

Additional observations from a re-analysis of the deposited data

How the results depend on the processing

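With the pairs of the in vivo arrays as a replicate block, the number of members that passed between WT1-high and WT1-intermediate cells went from 0 to 1 of 6. It was 1 with the numbers of the labels as a fixed replicate block (Notch1, -0.78, limma adjusted p = 0.018), 1 with 29 and 30 added as a pair, and 1 with a random replicate block (Notch4). All probes passing there numbered 730 without a block and 1847, 1520 and 1796 with these blocks. They numbered 473 with no background correction, 2684 with median scaling, 335 with no filter and 339 with only the compared groups in the fit, and between 335 and 456 when 1 of 4 arrays (WT1-high 8, WT1-high 29, WT1-intermediate 1 or WT1-negative 14) was left out. With detection required on all 9 arrays, 3 of 4 members passed between WT1-intermediate and WT1-negative cells in place of 5 of 6, since Notch3 and Jag1 were no longer tested. Median scaling turned Jag1 (0.20), Hes1 (0.51) and Hey1 (0.42) between the in vivo groups, none of which passed. It also took Notch1 in WT1-high against WT1-negative cells to an adjusted p of 0.069, and the number of wider pathway genes passing there from 22 to 12. Leaving out WT1-intermediate replicate 30 turned Hey1 between the in vivo groups and Notch1 in WT1-intermediate against WT1-negative cells, with ranges over the left-out arrays of -0.3743 to 0.0458 and -0.4532 to 0.0681. Leaving out each array in turn, the counts of members passing were 0 throughout between the in vivo groups, 5 to 6 in WT1-high against WT1-negative cells (5 without WT1-negative replicate 3, which lost Notch1) and 5 throughout in WT1-intermediate against WT1-negative cells. No fixed block was possible in the comparisons with WT1-negative cells, which share no replicate number. Without background correction the members' differences from WT1-negative cells shrank, for example to -0.80 and -0.59 for Notch4 and 0.35 and 0.43 for Jag1 in WT1-high and WT1-intermediate cells. Of the members' log2 differences, 338 of 348 values under the alternatives kept both direction and side of the threshold. The causes of these shifts were not tested. Jag2, Notch2 and Heyl were limited by signal near background.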
